A study of Mus musculus with 2 samples.

Results

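Protein arginine methyltransferase genes were examined in primordial germ cells (PGCs) of the mouse embryo at embryonic day 9.5 (E9.5). The 9 genes were the rows of the deposited expression table, out of 18877 rows, whose symbol was Prmt1, Prmt2, Prmt3, Carm1, Prmt5, Prmt6, Prmt7, Wdr77 or Clns1a. The first 7 symbols are enzymes, and Wdr77 and Clns1a encode protein partners of Prmt5. All 9 had a row.

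PGCs are the founders of oocytes and sperm. They were taken from untreated E9.5 embryos of the C57BL6 strain with an antibody against SSEA1, a surface antigen that PGCs carry, and the methods describe female embryos. Bulk RNA-seq was performed on 2 samples, which the submitters call biological repetitions, and no statement says how many embryos entered each. Both samples form 1 group with no control group, so no test between conditions was made, no p-value is given, and every comparison is between genes or between the libraries. Values are TPM, a relative transcript abundance in which reads are divided by gene length and scaled to a fixed total. In bulk RNA, fewer cells that express a gene and less RNA per cell cannot be told apart.

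Arginine methyltransferases move methyl groups from S-adenosylmethionine to arginine side chains of histones, RNA-binding proteins and splicing proteins. Type I enzymes (Prmt1, Prmt2, Prmt3, Carm1 and Prmt6) place both methyl groups on the same nitrogen, Prmt5 is the main type II enzyme and places them on different nitrogens, and Prmt7 is a type III enzyme that adds a single methyl group. Prmt5 works in a complex with the WD-repeat protein Wdr77, and Clns1a (pICln) presents the Sm proteins of spliceosomal particles to that complex. In the mouse germline Prmt5 is known as a partner of the transcriptional repressor Prdm1 (Blimp1) and as a gene needed for PGC survival.

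The sequences before the starts of Prmt5 and Prmt1 are shown because these enzymes account for most symmetric and most asymmetric arginine dimethylation in many cell types, and because their RNA levels were far apart in these PGCs. Both are from RefSeq promoters on GRCm38.p6, given 5′ to 3′ on the minus strand that holds each gene. Capitals mark CCAAT on either strand (ATTGG on the printed strand is the reverse form). Bases inside an annotated first exon were left out, which removed 55 of 250 bases for Prmt5 and 148 of 250 for Prmt1. The Prmt5 sequence is 195 bases at chr14:54517526-54517720, and the Prmt1 sequence is 102 bases at chr7:44986569-44986670.
Prmt5: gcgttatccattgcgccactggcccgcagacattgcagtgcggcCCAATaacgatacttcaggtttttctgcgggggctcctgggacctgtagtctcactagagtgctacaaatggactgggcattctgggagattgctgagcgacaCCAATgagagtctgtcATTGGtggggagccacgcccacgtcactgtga
Prmt1: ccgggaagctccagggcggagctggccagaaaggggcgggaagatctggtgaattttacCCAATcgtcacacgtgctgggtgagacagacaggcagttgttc
The printed Prmt5 sequence holds 3 copies of CCAAT and no GC box (GGGCGG on either strand), and the printed Prmt1 sequence holds 1 CCAAT and 2 GC boxes.

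Over the whole 250 bases before the RefSeq start, 8 of the 9 genes had a sequence in the reference table. CCAAT, searched on both strands, was present in 4 of the 8, against 33.8% of 32851 mouse promoters of the same length. The Prmt5 window held 4 copies and the Prmt1 window 3, and 2.79% of all promoters held 3 or more. The GC box was present in 5 of the 8, against 32.7% of all promoters, and the Prmt1 window held 4 copies while the Prmt5 window held 0. The ETS core CCGGAA was present in 2 of the 8 (Clns1a and Prmt2), against 12.0%, and TATAAA was present only in Prmt2, against 12.4%. Matches of different motifs were counted separately where they overlapped, and a match describes these letters only. All 8 windows held at least 10 CpG dinucleotides, which 37.8% of all promoters did, with a median of 13.5 against 6. The Prmt7 window was the richest of the 8, with 35 CpG, and Prmt5 and Prmt1 each held 13.

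Prmt5 and its partners were expressed in both libraries, and the partners were the 2 highest of the 9 genes. Prmt5 (chr14:54507187-54517525, minus strand, mm10) was at 15.3 and 16.9 TPM in replicates 1 and 2, or 16.1 ± 1.18 TPM (SD, n = 2). These values rest on 574 and 224 reads, with 95% Poisson intervals of 14 to 16.6 and 14.8 to 19.3 TPM. The libraries overlapped in their counting intervals, and 78.3% and 80.3% of all genes were lower than Prmt5. Reads here are read numbers recovered from the deposited values, and every interval covers counting error only, because amplified reads are not independent molecules.

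Wdr77 (chr3:105959369-105970037, plus strand), which forms the core complex with Prmt5, was at 41.0 and 42.1 TPM, or 41.6 ± 0.727 TPM, from 1889 and 681 reads. Clns1a (chr7:97696634-97720796, plus strand) was at 91.3 and 88.8 TPM, or 90.1 ± 1.74 TPM, from 3346 and 1145 reads. Both partners differed less between libraries than their counting intervals are wide. Relative to Prmt5 in the same library, Wdr77 was 2.69-fold (95% interval 2.45 to 2.96) and 2.49-fold (2.13 to 2.90) as high. Clns1a was 5.98-fold (5.47 to 6.55) and 5.25-fold (4.54 to 6.08) as high as Prmt5. The Wdr77 intervals do not cover reads of exons shared with the genes Gm42890 and Atp5f1, whose part in the ratio was not tested. With each gene's longest transcript as its length in place of all its exons, the mean ratio was 1.99 for Wdr77 and 4.90 for Clns1a, so both partners stayed above Prmt5 while the size of the ratio moved. With the longest coding transcript the mean Clns1a ratio was 9.79, since the annotated coding transcript of Clns1a has 1504 bases out of 3856 exonic bases.

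**Figure D1:**
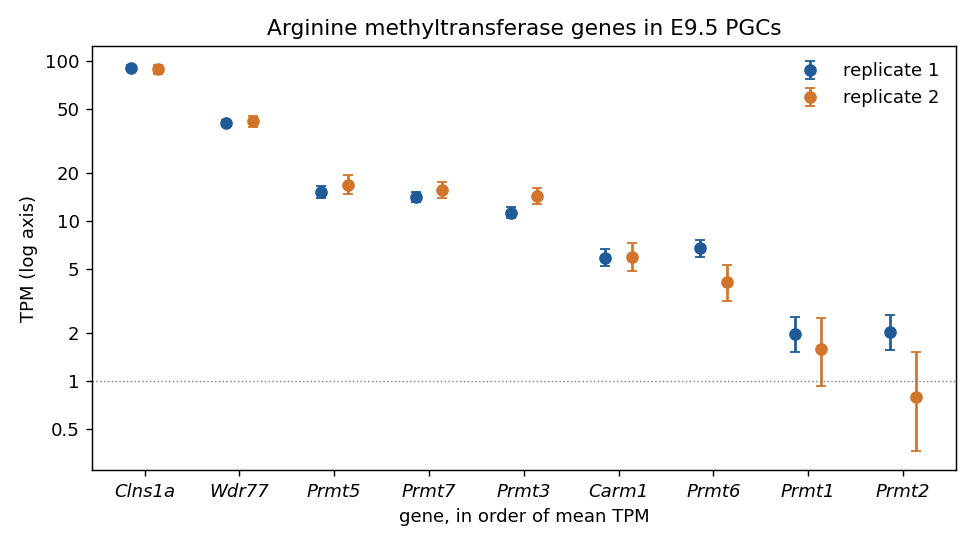
TPM (log axis) of the 9 genes in both E9.5 PGC libraries, in order of mean level; points are libraries and bars are 95% Poisson counting intervals from recovered reads, with a dotted line at 1 TPM. Clns1a and Wdr77 lie above every enzyme in both libraries, and Prmt1 and Prmt2 lie lowest, with Prmt2 crossing the dotted line between the libraries (2.02 and 0.796 TPM).

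RNA of the genes of other proteins known to join Prmt5 was also detected. Coprs, which directs the complex to histones, was at 48.3 and 43.5 TPM (45.9 ± 3.41), or 3.17-fold and 2.57-fold as high as Prmt5. Riok1, a kinase-like protein that competes with Clns1a for the complex, was lower, at 6.06 and 5.53 TPM (5.80 ± 0.373), or 0.397-fold and 0.327-fold as high as Prmt5. Prdm1, the repressor that specifies PGCs, was at 7.84 and 6.11 TPM (6.98 ± 1.22). All 3 were at 1 TPM or more in both libraries, against 60% of all genes. Coprs was the only one of them above Prmt5.

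The type III enzyme, Prmt7 (chr8:106210936-106252794, plus strand), stood beside Prmt5. It was at 14.2 and 15.6 TPM, or 14.9 ± 1.03 TPM, from 825 and 320 reads. The ratio of Prmt7 to Prmt5 was 0.929 (0.834 to 1.03) in replicate 1 and 0.923 (0.776 to 1.1) in replicate 2. Prmt7 was the lower gene in both libraries, but both intervals included 1.

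Among the type I enzymes, Prmt3 was highest and Prmt1 and Prmt2 were lowest. Prmt3 (chr7:49778346-49858265, plus strand), a cytosolic enzyme known for methylating the ribosomal protein Rps2, was at 11.3 and 14.3 TPM, or 12.8 ± 2.13 TPM. Its counting intervals, 10.4 to 12.2 and 12.7 to 16.1 TPM, did not overlap, and replicate 2 was the higher library.

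Carm1 (chr9:21546894-21592623, plus strand), a coactivator that methylates histone H3 and splicing factors, was at 5.90 and 5.98 TPM, or 5.94 ± 0.0584 TPM, from 272 and 97 reads. Prmt6 (chr3:110246109-110250998, minus strand), a nuclear enzyme that methylates histone H3, was at 6.74 and 4.13 TPM, or 5.44 ± 1.84 TPM, from 269 and 58 reads. Carm1 was nearly equal in both libraries, whereas Prmt6 was above Carm1 in replicate 1 and below it in replicate 2.

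Prmt1 (chr7:44975989-44986568, minus strand), the main asymmetric methyltransferase of many tissues, was at 1.97 and 1.57 TPM, or 1.77 ± 0.278 TPM. Only 64 and 18 reads stand behind these values, with intervals of 1.51 to 2.51 and 0.932 to 2.48 TPM that overlap. Prmt1 was 0.129-fold (0.0979 to 0.167) as high as Prmt5 in replicate 1 and 0.0929-fold (0.0540 to 0.150) in replicate 2. In order of level Prmt1 ranked 10558 and 11187 among all genes, while Prmt5 ranked 4088 and 3724.

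Prmt2 (chr10:76207222-76237865, minus strand), an SH3-domain enzyme with weak activity, was at 2.02 and 0.796 TPM, or 1.41 ± 0.867 TPM, from 65 and 9 reads. It was the only one of the 9 genes under 1 TPM in a library, and its intervals of 1.56 to 2.58 and 0.364 to 1.51 TPM did not overlap.

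The order of the mean levels was Clns1a, Wdr77, Prmt5, Prmt7, Prmt3, Carm1, Prmt6, Prmt1 and Prmt2. Clns1a and Wdr77 (2.17-fold apart), Wdr77 and Prmt5 (2.58-fold), Prmt3 and Carm1 (2.16-fold), and Prmt6 and Prmt1 (3.07-fold) were separate in both libraries, by value and by counting interval. The other neighbours, Prmt5 with Prmt7, Prmt7 with Prmt3, Carm1 with Prmt6, and Prmt1 with Prmt2, overlapped between libraries. Carm1 with Prmt6 and Prmt1 with Prmt2 even changed order from replicate 1 to replicate 2. Within each library, however, Prmt5 was above Prmt7 and Prmt7 above Prmt3. In replicate 1 the counting intervals of Prmt7 (13.2 to 15.2 TPM) and Prmt3 (10.4 to 12.2 TPM) were separate.

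Whether Prmt5 led the enzymes depended on the gene length used. With the longest transcript, mean levels were 21.5 TPM for Prmt7, 21.4 TPM for Prmt3 and 19.4 TPM for Prmt5. With the longest coding transcript, they were 22.6 TPM for Prmt3, 19.4 TPM for Prmt7 and 17.5 TPM for Prmt5. The group of Prmt5, Prmt7 and Prmt3 stayed above Carm1 and Prmt6, and those above Prmt1 and Prmt2, by mean level with each of the 3 lengths.

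**Figure D2:**
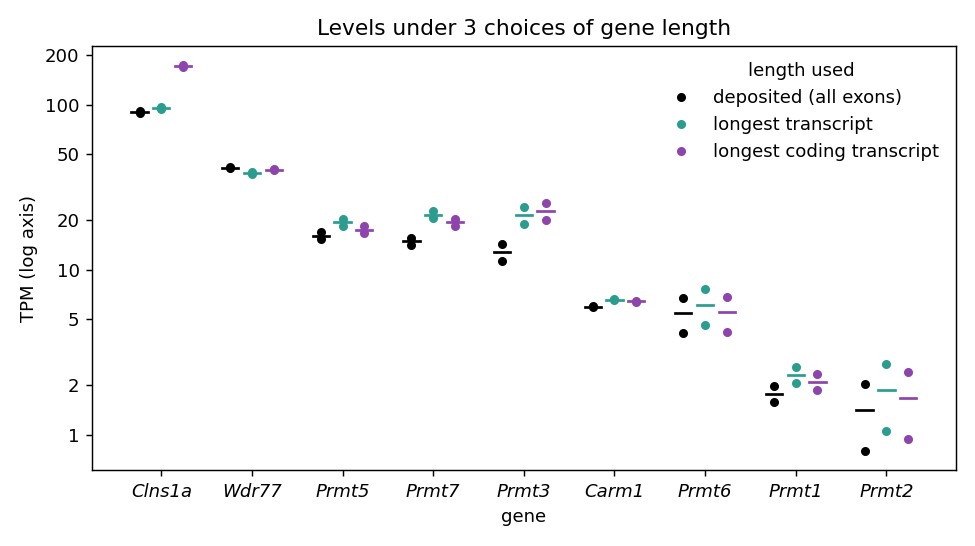
TPM (log axis) of the 9 genes with reads divided by all exon bases (as deposited), by the longest transcript or by the longest coding transcript; points are the libraries and short lines their means. Prmt5, at 16.1 TPM as deposited, exchanges order with Prmt7 and Prmt3, whereas Prmt1 and Prmt2 are lowest with each length.

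Of the 9 genes, 8 were at 1 TPM or more in both libraries, against 60% of all genes of the table. At 10 TPM or more in both libraries were 5 of 9 (Clns1a, Wdr77, Prmt5, Prmt7 and Prmt3), against 25.3% of all genes. The median gene of the 9 stood at the 74.1 percentile of all genes in replicate 1 and the 78.2 percentile in replicate 2. The genes were spread widely around that median, from the 93.1 percentile for Clns1a in both libraries to Prmt2, which ranked 13213 of 18877 genes in replicate 2.

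In replicates 1 and 2 the 7 enzymes summed to 57.4 and 59.4 TPM, or 58.4 ± 1.42 TPM. Prmt5 made up 26.6% and 28.5% of that sum (27.6% ± 1.36), Prmt7 made up 24.7% and 26.3% (25.5% ± 1.15), and Prmt3 made up 19.7% and 24.1% (21.9% ± 3.13). Carm1 held 10.2% ± 0.147 and Prmt6 held 9.36% ± 3.39. Prmt1 contributed 3.43% and 2.65% (3.04% ± 0.551) and Prmt2 contributed 3.53% and 1.34% (2.43% ± 1.54). The 5 type I enzymes summed to 48.7% and 45.2%, so their RNA exceeded that of Prmt5 by a ratio of 1.83 and 1.58. Prmt3 supplied the largest part of that type I sum in both libraries. Shares of RNA say nothing of protein amount or enzyme activity.

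**Figure D3:**
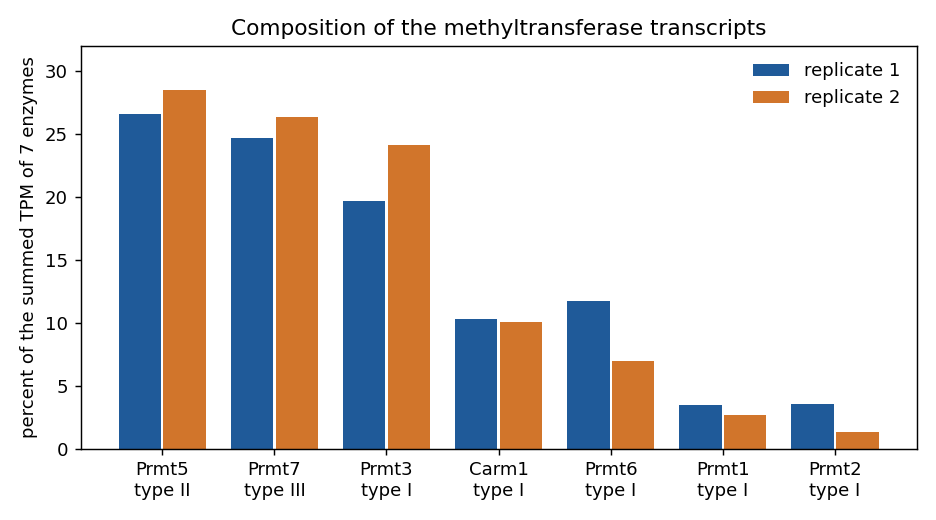
Percent of the summed TPM of the 7 enzymes held by each, with both libraries as bars and the enzyme class under each name. Prmt5, Prmt7 and Prmt3 hold the most in both libraries, and Prmt1 holds 3.43% and 2.65%.

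Between the libraries, none of the 9 genes was more than 2-fold apart on the log2(TPM + 1) scale, a scale that understates differences of low genes, against 10.2% of all genes. The ratio of replicate 2 to replicate 1 had a counting interval that left out 1 for 3 of 9 genes, against 46.3% of the 11115 genes with at least 50 reads. Those 3 were Prmt3 at 1.27 (1.1 to 1.46), Prmt6 at 0.613 (0.453 to 0.817) and Prmt2 at 0.394 (0.172 to 0.794). For Prmt5 the ratio was 1.11 (0.947 to 1.30), for Prmt1 0.800 (0.446 to 1.37) and for Carm1 1.01 (0.796 to 1.28). The summed level of 4 macrophage markers was lower in replicate 2, at 9.53 against 19.4 TPM, with 4 of 4 markers lower and C1qb listed at 0 there. Of 5 endothelial markers, 4 were lower in replicate 2, Emcn among them at 2.12 TPM in replicate 1 and listed at 0 in replicate 2, while Pecam1 was at 8.23 and 9.99 TPM. Other lists went the other way, with 4 of 5 mesenchymal and 3 of 3 neural markers higher in replicate 2. Lower there were 5 of 8 PGC, 5 of 7 red blood cell and 3 of 5 gonadal epithelial markers. Replicate 1 held 2.92-fold as many reads as replicate 2, and the part of these markers or of depth in the ratios was not tested.

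**Figure D4:**
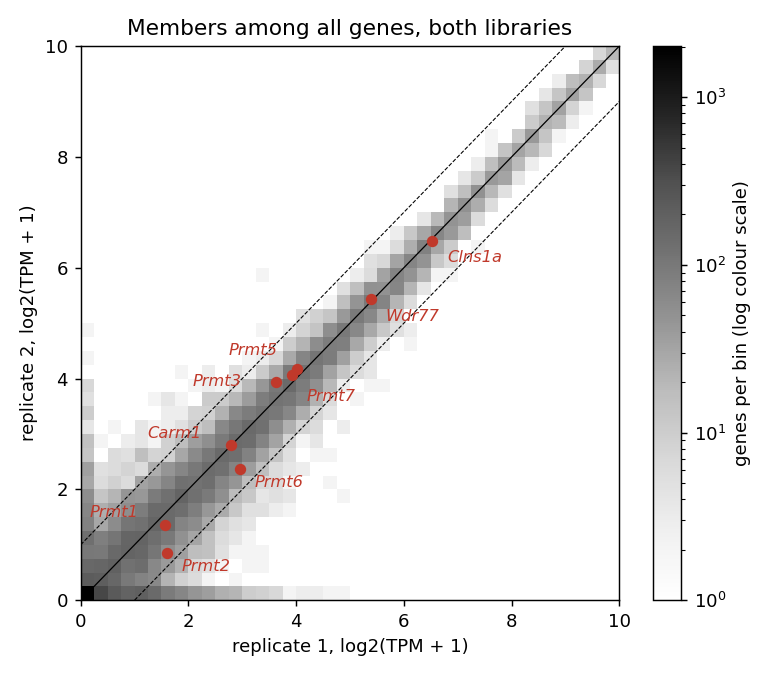
Level of each gene in replicate 1 against replicate 2 as log2(TPM + 1); grey squares count all genes of the table (log colour scale, axes drawn to 10), red points are the 9 genes, the solid line marks equal levels and dashed lines mark a 2-fold difference. All 9 points lie within the dashed lines. Prmt2, Prmt6, Prmt1 and Clns1a lie below the line of equal levels, Prmt2 and Prmt6 furthest.

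Several of these genes share exon bases with neighbours, and the authors' handling of strand and of reads in shared exons is not given in the sources used here. Wdr77 shares 28.7% of its exon bases with Gm42890 on the same strand, which was at 14.7 ± 0.418 TPM, and 6.96% with Atp5f1 on the opposite strand, at 228 and 222 TPM. Carm1 shares 21.1% with Yipf2 on the opposite strand, at 13.4 and 13.3 TPM. Prmt6 shares 23.4% with the antisense gene C130013H08Rik, at 1.03 and 0.891 TPM. The values of Wdr77, Carm1 and Prmt6, and that of Prmt2 (below), are therefore uncertain by reads that could belong to either gene.

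Overlaps smaller in bases were found for Prmt7 with Smpd3 (4.03% of Prmt7 exon bases) and Gm26786 (0.343%), Clns1a with Rsf1os2 (3.14%), Prmt2 with Mir678 (2.48%), and Prmt3 with Gm26856 (2.40%) and Gm44822 (1.32%). Mir678 shares 84 bases with Prmt2 on the same strand and was at 42.6 and 17.8 TPM, against 2.02 and 0.796 TPM for Prmt2. Both were lower in replicate 2, and the part of shared reads in the Prmt2 values was not tested. Prmt1 and Prmt5 share no exon bases with another gene. Processed pseudogenes resemble some of the transcripts. Prmt1 matches AC148336.1 at 91.4% identity over 1038 bases, Wdr77 matches Gm15528 at 94.6% over 869 bases, and Clns1a matches Gm14131, listed at 0 in both libraries, at 93.7% over 679 bases. No 100-base stretch of Prmt1, Prmt2 or Prmt5 occurs in a transcript of another gene.

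The arginine methyltransferases outside the 9 genes were uneven. Mettl23, which methylates histone H3, was at 217 and 202 TPM (210 ± 10.2), and it shares 17.1% of its exon bases with Srsf2 on the opposite strand, at 236 and 216 TPM, a neighbour named after its values were seen. Ndufaf7, the mitochondrial enzyme of complex I assembly, was at 18.5 and 7.14 TPM and was more than 2-fold apart between libraries. Prmt9, a type II enzyme that methylates a splicing factor, was at 6.89 and 8.90 TPM (7.90 ± 1.42), below Prmt5 in both libraries. Prmt8, known from the brain, was at 1.08 and 0.329 TPM. Of these 4 genes, 3 were at 1 TPM or more in both libraries, against 60% of all genes.

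Proteins that act with individual enzymes were mostly at low to middle levels. Btg1 and Btg2, which bind Prmt1, were at 7.83 ± 0.173 and 2.46 ± 0.0650 TPM, both above Prmt1. Of the 5 coactivators that recruit or are methylated by Carm1, 4 reached 1 TPM in both libraries, against 60% of all genes. They were Crebbp at 12.1 ± 1.28 TPM, Ncoa3 at 8.76 ± 0.708 TPM, Ncoa2 at 7.16 ± 0.395 TPM and Ep300 at 2.72 ± 0.272 TPM, with Ncoa1 lowest at 0.908 and 1.26 TPM. Jmjd6, an oxygenase for which arginine demethylation has been proposed, was at 8.49 and 6.37 TPM, and the peptidylarginine deiminases Padi1, Padi2, Padi3, Padi4 and Padi6 were not analysed here.

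Genes of the Sm and Lsm proteins, only some of which are known symmetric dimethylation substrates, had the highest median level of the lists examined. Their median log2(TPM + 1) was 8.90 in replicate 1 and 8.88 in replicate 2, against 1.89 and 1.85 for all genes. At 1 TPM or more in both libraries were 9 of 10, against 60% of all genes. Snrpe was highest at 1407 ± 44.5 TPM, followed by Snrpd2 at 849 ± 43.5 TPM, Snrpd1 at 727 ± 3.06 TPM, Snrpg at 650 ± 43.1 TPM and Snrpf at 624 ± 29.2 TPM. Snrpd3 was at 366 ± 1.51 TPM, Lsm4 at 267 ± 2.36 TPM, Lsm10 at 118 ± 16.6 TPM and Snrpb at 68.8 ± 7.59 TPM. The exception was Lsm11, a component with Lsm10 of the particle that processes histone mRNA, at 0.522 and 1.34 TPM. Every other Sm or Lsm gene was above Prmt5 in both libraries.

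The SMN complex loads methylated Sm proteins onto small nuclear RNAs. Of its genes, 9 of 9 were at 1 TPM or more in both libraries, against 60% of all genes. Their median log2(TPM + 1) was 4.04 and 4.17. Gemin6 (137 ± 30.4 TPM), Strap (86.8 ± 5.94 TPM) and Gemin2 (63.3 ± 4.02 TPM) led the group. Ddx20 (21.7 ± 2.50 TPM), Gemin4 (16.1 ± 1.19 TPM) and Gemin7 (13.9 ± 2.11 TPM) were near the level of Prmt5. Smn1, the founding member with a Tudor domain that reads methylated arginine, was at 6.11 ± 1.46 TPM, Gemin5 at 4.28 ± 0.622 TPM and Gemin8 at 3.24 ± 0.676 TPM.

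Other readers of methylated arginine carry Tudor domains. Of the general readers, the splicing factor Smndc1 was at 105 ± 0.743 TPM, Tdrd3 at 7.80 ± 0.582 TPM and Snd1 at 6.64 ± 1.15 TPM. Among the germline Tudor and Piwi genes, which act in transposon silencing, 7 of 10 had a row. Of those 7, 4 were at 1 TPM or more in both libraries, near the 60% of all genes. Those 4 were Tdrkh at 22.9 ± 3.04 TPM, Stk31 at 19.3 ± 1.13 TPM, Piwil2 at 9.19 ± 3.49 TPM and Tdrd5 at 5.02 ± 0.0287 TPM. Tdrd7 was at 0.744 and 0.756 TPM, Tdrd1 at 0.251 and 0.824 TPM and Piwil4 at 0.137 and 0.167 TPM. Tdrd6, Tdrd9 and Piwil1 were not analysed here. The median log2(TPM + 1) of the 7 genes was 2.59 and 2.60.

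Proteins with arginine- and glycine-rich stretches are substrates of both type I and type II enzymes. Of those listed, 18 of 18 were at 1 TPM or more in both libraries, against 60% of all genes. Their median log2(TPM + 1) was 5.92 and 5.88. The 4 highest were Hnrnpa1 (572 ± 76.3 TPM) and Hnrnpa2b1 (338 ± 5.42 TPM), which bind pre-mRNA, Rps2 (250 ± 1.73 TPM), the ribosomal substrate of Prmt3, and Ncl (138 ± 9.38 TPM), the nucleolar protein nucleolin. Among the lowest were Taf15 (2.31 ± 1.08 TPM), Khdrbs1 (5.15 ± 0.955 TPM) and Trp53bp1 (9.62 ± 0.431 TPM). The lowest of these, Taf15, was above Prmt1 in replicate 2 and below it in replicate 1.

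**Figure D5:**
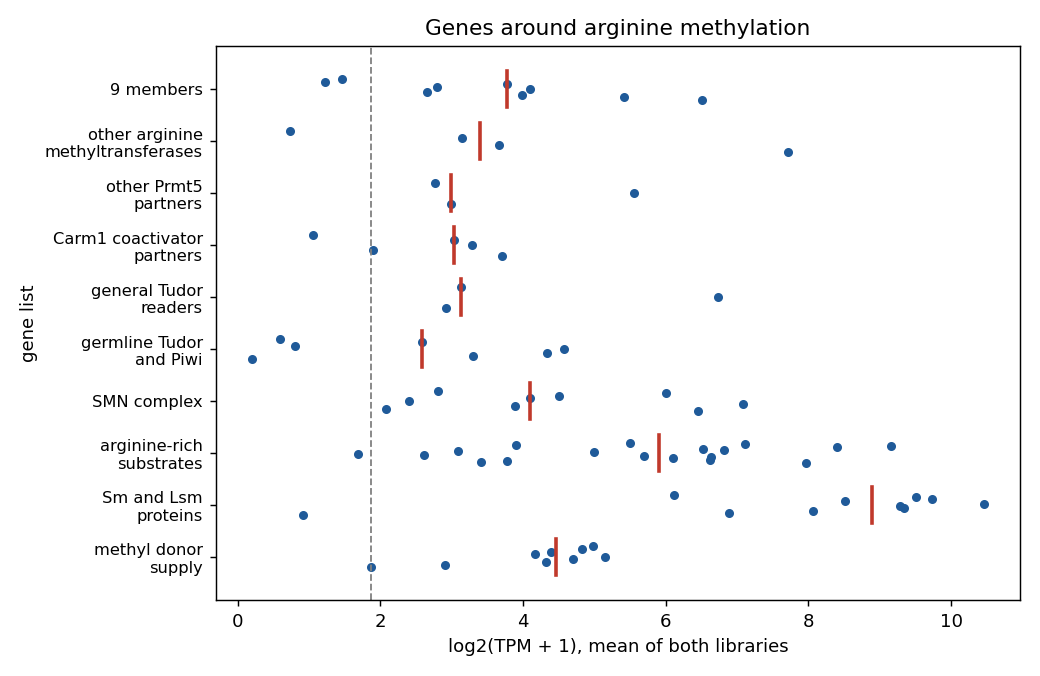
Level of each gene of 10 lists as log2(TPM + 1), averaged over both libraries (points); red lines mark the list's median and the dashed line the median of all genes. The Sm and Lsm proteins reach the highest levels, with Snrpe at 1407 TPM, and the 9 genes spread from below the dashed line (Prmt1 and Prmt2) to Clns1a.

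Among the genes closest to Prmt5 in level, by distance over log2(TPM + 1) of both libraries, were Gemin4 (15.3 and 17.0 TPM) and Rbm34 (15.3 and 16.9 TPM). With 2 libraries this likeness is one of level, and 59 genes lay within a distance of 0.1.

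The libraries held 15912471 and 5458687 recovered reads, and 12887 and 12616 genes at 1 TPM or more. The label of the cells was checked against markers. All 8 PGC markers were at 1 TPM or more in both libraries, against 60% of all genes. Their means ran from 8.40 TPM for Kit to 5044 TPM for Dppa3. Embryonic red blood cell RNA was present too, with 7 markers summing to 4002 and 3780 TPM. Summed levels were 12.9 and 11.0 TPM for 5 endothelial markers (of which Pecam1 gave 8.23 and 9.99 TPM), 2.37 and 3.95 TPM for 5 mesenchymal markers, 6.41 and 7.05 TPM for 3 neural markers, and 3.91 and 3.99 TPM for 5 gonadal epithelial markers. The 4 macrophage markers summed to 19.4 and 9.53 TPM. The part of other cells in the levels of the 9 genes was not tested.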

How the data were processed

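RNA of SSEA1-isolated E9.5 PGCs was sequenced in 2 libraries. The authors aligned reads to mm10 with Hisat2, counted them with featureCounts and deposited TPM per gene; versions, annotation and strand handling are not given in the sources used here. The methods describe Smart-seq2 whereas the labels name another library kit, so the chemistry is uncertain. Per the methods, DESeq2 compared conditions, which was not done here. The submitters' processing notes also list RSEM, whose role is not given in the sources used here.

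The deposited TPM were multiplied by the length of the merged exons of a gene (GENCODE release M21, GRCm38, the assembly of mm10) and found to be whole multiples of 1 amount per library, taken as 1 read. Of values under 50 reads, 96.7% and 95.8% came within 0.02 of a whole number, where chance gives 4%. On simulated whole counts for 18748 genes, divided by the same gene lengths, 100% were recovered in both libraries. That simulation could not check genes for which the authors used another length. Recovered reads gave exact 95% Poisson intervals and Clopper-Pearson intervals of ratios. With 1 group no count test was possible. TPM is relative, so very abundant or very short genes lower all other values.

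The 9 genes and the gene lists were chosen with earlier results of these data known. Named were the 9 genes, every gene of the lists with at most 10 genes, the 4 highest and the 4 lowest of the list with more, the 3 genes nearest to Prmt5 and genes that share exons with the 9, apart from a few that are not reported here. Alternatives were other thresholds, a pseudocount of 0.1 in place of 1, other gene lengths, leaving out genes under 200 bases and leaving out each library. The software was matplotlib 3.10.9, scipy 1.17.1, pandas 2.3.3 and numpy 2.4.6 under Python 3.11.15.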

Additional observations from a re-analysis of the deposited data

How the results depend on the processing

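Over 17 results and 84 alternative values, 52 moved by less than the spread between replicates or stayed within 1.5 times the count. The other 32 moved further, 20 of them levels of single genes. With 2 libraries, leaving out either one always moves a mean by less than the SD. Such values for levels, shares, ratios and percentiles are among the 52 by construction and say nothing of stability. At a threshold of 20 TPM, 2 of the 9 genes (Clns1a and Wdr77) passed in both libraries, against 16.9% of all genes, in place of 5 at 10 TPM, against 25.3%. With a pseudocount of 0.1, 1 gene (Prmt2) was more than 2-fold apart between libraries, against 23.7% of all genes, and with a threshold of 1.5-fold there were 2, against 22.7%. With the longest transcript as gene length, Prmt5 made up 24.5% of the enzyme sum, the Wdr77 ratio to Prmt5 was 1.99, the Clns1a ratio 4.90 and the median percentile of the 9 genes 80.7. With the longest coding transcript, a choice added after seeing the data, these were 23.2%, 2.31, 9.79 and 80.0. Without genes under 200 exonic bases the mean levels of all 9 genes rose, and their ratios to Prmt5 stayed the same. Clns1a was then at 105, Wdr77 at 48.4 and Prmt5 at 18.8 TPM, in place of 90.1, 41.6 and 16.1 TPM. Among genes at a mean of 1 TPM or more the median percentile was 65.1, in place of 76.1 ± 2.94 among all genes. Leaving out either library moved no count by over 1.5 times. No paired analysis was possible because there is 1 group. Depth limits Prmt2 and Prmt1 most, at 9 and 18 reads in replicate 2.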

Other observations

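The genes that supply and recycle the methyl donor were all expressed. All 9 genes of S-adenosylmethionine supply were at 1 TPM or more in both libraries, against 60% of all genes. Their median log2(TPM + 1) was 4.49 and 4.42, against 1.89 and 1.85 for all genes. Mat2a and Mat2b, the subunits of the enzyme that makes S-adenosylmethionine, were at 29.2 and 32.1 TPM and at 25.4 and 29.4 TPM. Ahcy, which clears the product of methyl transfer, was at 19.6 and 20.5 TPM. Adk, which removes the adenosine that Ahcy releases, had the highest mean of the list, at 38.9 and 30.8 TPM. In replicate 2 Mat2a was above Adk.

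Mtap degrades methylthioadenosine, a metabolite that inhibits Prmt5, and was at 20.6 and 14.1 TPM. Amd1, whose pathway to polyamines produces that metabolite, was at 29.3 and 21.2 TPM. Of the genes that remake methionine, Mtr was at 21.5 and 16.8 TPM and Mtrr at 6.56 and 6.44 TPM.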
